A study of Mus musculus with 10 samples.

Results

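The epithelial cells of the E16.5 mouse lower incisor that carried *Krt15* or *Meis2* RNA were examined. An epithelial cell was defined as one with at least 3 of 9 epithelial genes (*Epcam*, *Krt5*, *Krt14*, *Krt17*, *Dsp*, *Dsc3*, *Dsg2*, *Sfn*, *Trp63*) and at most 1 of 3 mesenchymal genes (*Pdgfra*, *Prrx1*, *Twist1*) detected by a UMI, a unique molecular identifier that counts captured RNA molecules. It was a member if it held at least 1 UMI of *Krt15* or *Meis2* and at most 1 UMI of *Shh*. The rule gave 142 members among 1657 epithelial cells, 8.57% (95% interval 7.27 to 10.0), out of 17175 cells of the whole series. The remaining 1515 epithelial cells of the stage were the comparison group.

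The study profiled single cells from wild-type NMRI mouse embryos to follow how the dental epithelium and its *Sox2*-expressing stem cells develop. At E11.5 whole mandibles were dissected, and at both later stages the buds of the lower incisor, with no transgene and no treatment at any stage. The labels list 2 samples for E16.5 and 4 for each earlier stage, but all barcodes of a stage carried 1 common suffix and none could be traced to its sample. Each stage was therefore 1 sample, no difference was tested, and all intervals given here are exact 95% intervals that cover counting error only.

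Krt15 is a type I keratin of basal cells in stratified epithelia and is known from stem cells of the hair follicle. Meis2 is a homeodomain transcription factor of the TALE class, which binds DNA together with other homeodomain proteins and takes part in patterning of craniofacial tissues. Shh is the hedgehog ligand that tooth epithelium produces in the enamel knot and later in the inner enamel epithelium, and Sox2 marks the stem cells of the incisor cervical loop.

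At E16.5, UMIs of *Krt15* and *Meis2* were mostly detected in different cells, although at such low counts a cell without a UMI may still carry the RNA. Of the 142 members, 81 held *Krt15* without *Meis2* (*Krt15*-only), 51 held *Meis2* without *Krt15* (*Meis2*-only) and 10 held both. The counts behind the rule were low, since 89 members had a total of 1 UMI of the pair, and the highest counts in a member were 13 UMIs of *Krt15* and 6 of *Meis2*. The level of *Krt15* was 131 CPM (112 to 152; CPM is the group's summed counts of a gene scaled to a fixed total of UMIs) in *Krt15*-only members, and that of *Meis2* was 89.9 CPM (70.8 to 113) in *Meis2*-only members. These values chose the cells and are description. The *Shh* limit kept out 31 cells with *Krt15* or *Meis2*, of which 26 held *Meis2* and 10 had exactly 2 *Shh* UMIs. Just inside that limit, 10 members had 1 *Shh* UMI. The 9 epithelial genes were detected in 69.0% (*Sfn*) to 91.5% (*Krt14*) of members, and 89.4% of members held no UMI of the mesenchymal genes, shares that the gate largely fixed.

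Depth differed between the kinds of member. The median was 9272 UMIs per cell over all members, ranging from 1707 to 110353, and 6983 in the other epithelial cells. *Krt15*-only members had a median of 6325 UMIs, *Meis2*-only members 9786, and the 10 cells with both genes 28978. A deeper cell has more chances to show a UMI of a low gene, so the kinds of member are not equally deep samples of their populations. With each cell thinned to 2000 UMIs, 3.75% of the epithelial cells met the rule. Of the members, 4 (2.82%) were among the 5% of E16.5 cells with the highest doublet scores, beside 4.03% of the other epithelial cells, and none of the 10 cells with both genes was among them.

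Both genes were detected more often in epithelial than in mesenchymal cells. *Krt15* was detected in 5.85% of epithelial cells (median 7149 UMIs) and in 0.272% of 1471 mesenchymal cells (median 6541 UMIs, 0.0741 to 0.695%), a cell type that should lack it. *Meis2* was detected in 5.25% of epithelial cells and in 0.612% of the mesenchymal cells. *Meis2* was also detected in 3 of 21 immune cells (median 10643 UMIs), with 14 UMIs in all, and in 0 of 33 erythroid cells, which allows a share of up to 9.09% of cells with a UMI (3 counts of 33 cells). When the cells were chosen on a random part of their UMIs and the levels read from the remaining UMIs, cells chosen by *Krt15* had 131 CPM of *Krt15* (101 to 166) and cells chosen by *Meis2* had 32.7 CPM of *Meis2* (18.7 to 53.0). The cells not chosen had 5.02 CPM of *Krt15* and 4.30 CPM of *Meis2* in those remaining UMIs. Cells chosen by *Meis2* also had 40.8 CPM of *Krt15* (24.9 to 63.1), above the cells not chosen, while cells chosen by *Krt15* had 3.90 CPM of *Meis2* (0.472 to 14.1) from 2 UMIs.

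The association of the pair differed between stages. At E16.5, among epithelial cells with at most 1 *Shh* UMI, *Meis2* was detected in 10 of 91 cells with *Krt15*, 10.99% (5.40 to 19.3), and in 51 of 1195 cells without it, 4.27% (3.19 to 5.57). At E14.5, by the same rule, *Meis2* was detected in 55 of 84 cells with *Krt15*, 65.5% (54.3 to 75.5), and in 85 of 693 cells without it, 12.3% (9.92 to 14.9). The intervals overlap slightly at E16.5 and are apart at E14.5. Thinned to 2000 UMIs per cell, the E14.5 shares were 50% and 7.51%, whereas the E16.5 shares were 2.63% (0.0666 to 13.8) and 1.46% (0.893 to 2.24) and could not be distinguished at that depth. Stage and sample cannot be told apart.

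**Figure D1:**
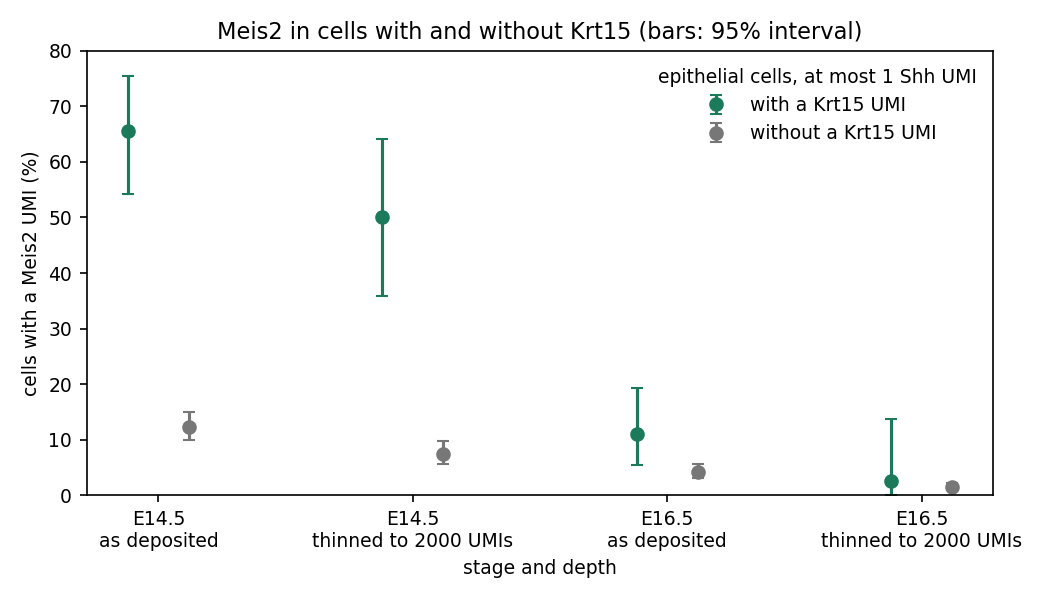
Share of epithelial cells with a *Meis2* UMI (vertical axis, percent), in cells with and without a *Krt15* UMI, at E14.5 and E16.5, as deposited and thinned to 2000 UMIs per cell. Points are shares and bars exact 95% intervals. *Meis2* was found in 65.5% of *Krt15* cells at E14.5 and in 10.99% at E16.5.

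By position on GRCm38 (GENCODE vM21), *Krt15* (ENSMUSG00000054146) lies on chromosome 11 from 100131758 to 100135928, minus strand, and *Meis2* (ENSMUSG00000027210) on chromosome 2 from 115863064 to 116065839, minus strand. The counts are per gene and do not tell exons or isoforms apart.

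When the epithelial cells were clustered without *Krt15*, *Meis2* and *Shh*, the kinds of member were spread differently over the clusters, with overlap. Of the 8 clusters, numbered by size, cluster 3 held 68 of the 142 members, 47.9% (39.4 to 56.4), although it held 16.1% of the epithelial cells. It was led by *Angpt1*, *Chchd10* and *Maf*, and members made up 25.6% of its cells. Of the *Krt15*-only members, 49 of 81 (60.5%, 49.0 to 71.2) were in cluster 3 and 20 of 81 (24.7%) in cluster 4, which was led by *Pcp4* and *Cldn10* and had *Sox2* among its leading genes. *Meis2*-only members were more scattered, with 19 of 51 (37.3%, 24.1 to 51.9) in cluster 2, led by *Stmn2*, *Slc40a1* and *Igfbpl1*, 14 in cluster 1, led by histone and mitotic genes, and 13 (25.5%) in cluster 3. Cluster 3 also held 6 of the 10 cells with both genes.

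The levels of the pair over all cells of a cluster rest on the UMIs that chose the members and are given as description. *Krt15* was at 61.8 CPM in cluster 3 and 13.5 CPM in cluster 4, and at 2.29 CPM in cluster 1 and 0.757 CPM in cluster 2. *Meis2* was at 12.6 CPM in cluster 2, 10.2 CPM in cluster 3 and 6.30 CPM in cluster 1, whose intervals (9.36 to 16.6, 6.69 to 15 and 4.58 to 8.46 CPM) overlap in neighbouring pairs, and at 1.73 CPM in cluster 4.

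**Figure D2:**
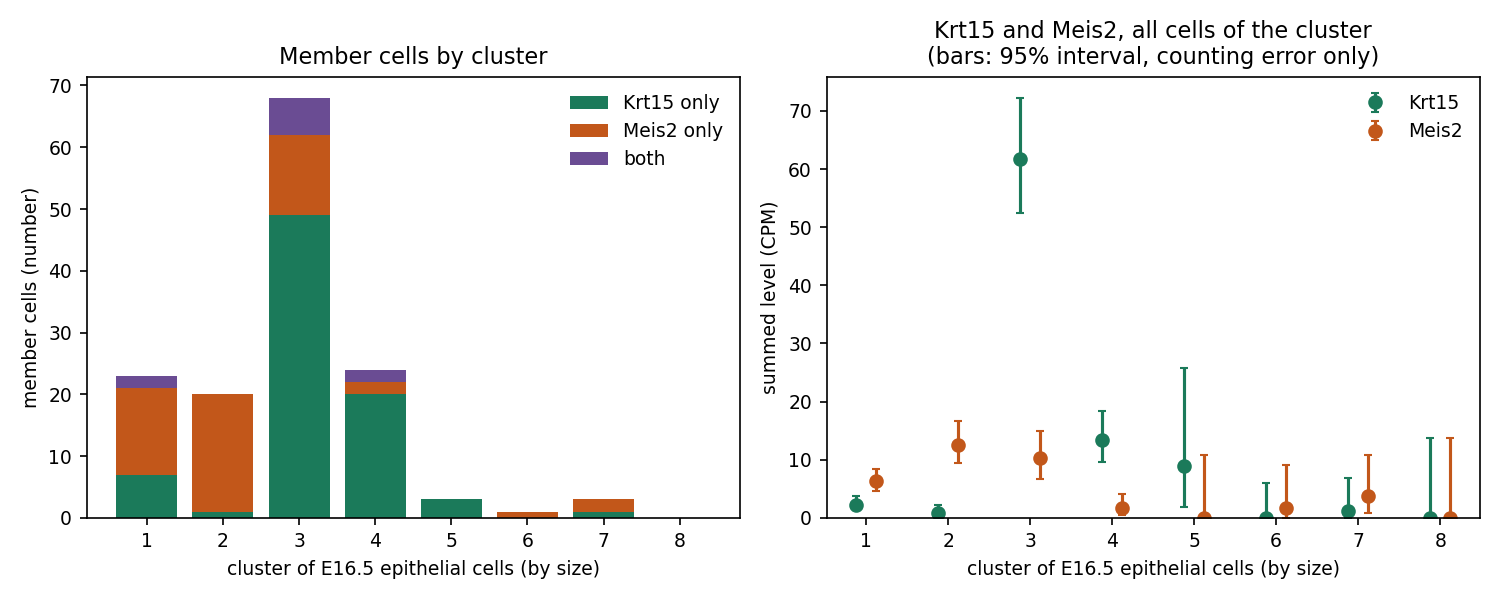
Member cells in each of the 8 clusters of E16.5 epithelial cells (left, number of cells, stacked by kind of member) and the level of *Krt15* and *Meis2* over all cells of the cluster (right, CPM, bars are exact 95% Poisson intervals). Cluster 3 held 68 of the 142 members and had the highest *Krt15* level, 61.8 CPM, while *Meis2* was at 12.6 CPM in cluster 2 and 10.2 CPM in cluster 3.

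The members were next compared with the other epithelial cells gene by gene, to see what else the 142 cells shared. Ratios are log2 ratios of summed CPM with 10 CPM added to both groups, and genes were ranked if at least 10% of the cells of either group held a UMI and at least 50 UMIs were counted. Of 9253 genes ranked, 127 (1.37%) were at least 2-fold higher in members and 31 (0.335%) at least 2-fold lower. The median ratio was 0.09. Both counts hold for these settings only. With cells thinned to the same number of UMIs, both were larger and the excess of higher over lower genes was much smaller. With less CPM added both were also larger, and with more CPM added both were smaller, as given in the last section. *Krt15*, *Meis2* and *Shh*, which the rule used, were left out of these counts and of every ranking of genes by ratio between groups of cells given here. The leading genes of clusters were not filtered in this way, and *Krt15* was among the 10 of cluster 3. The rule chose the cells from this same contrast, so the values describe the members and support nothing further.

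The 15 genes furthest above the other epithelial cells are given in an order made after their values were seen, with secreted and matrix proteins before the rest. *Angpt1*, a ligand of the Tie2 receptor, on chromosome 15 from 42424723 to 42676977, was at 139 CPM in members and 19.5 CPM in the other cells, a log2 ratio of 2.34 (2.16 to 2.52), and was detected in 46.5% of members and 9.50% of the others. *Sparcl1*, a matricellular protein related to SPARC, was at 149 against 21.5 CPM (2.33, 2.16 to 2.51). *Col14a1*, a fibril-associated collagen, was at 61.8 against 5.96 CPM (2.17, 1.95 to 2.37). The summed level of *Col14a1* was similar in *Meis2*-only (52.8 CPM) and *Krt15*-only members (51.6 CPM), or 41.3 and 44.6 CPM without the highest cell of each. It was detected in 11 of 51 *Meis2*-only and 34 of 81 *Krt15*-only members. The 19 *Meis2*-only members of cluster 2 had 0 UMIs of it. *Lgi2*, a secreted protein of the LGI family, was at 165 against 36.6 CPM, and *Adamtsl1*, an ADAMTS-like protein without protease activity, at 74.3 against 12.9 CPM.

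*Maf*, a basic leucine zipper transcription factor, was at 652 CPM in members and 185 CPM in the others (1.76, 1.68 to 1.85). *Rarb*, a retinoic acid receptor, was at 65.8 against 9.10 CPM (1.99, 1.77 to 2.20). *Ppargc1a*, a coactivator of mitochondrial biogenesis, was at 116 against 19.5 CPM (2.09, 1.90 to 2.27), and *Chchd10*, a mitochondrial protein, at 147 against 33.0 CPM. *Alpl*, the tissue-nonspecific alkaline phosphatase needed for mineralization, was at 191 against 49.4 CPM (1.76, 1.60 to 1.91).

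The remaining 5 of the 15 genes encode membrane proteins. *Slc12a2*, the sodium-potassium-chloride cotransporter, was at 840 CPM in members and 210 CPM in the others (1.95, 1.87 to 2.03). *Nrxn3*, a neurexin known from synapses, was at 107 against 18.1 CPM, *Tenm2*, a teneurin adhesion receptor, at 150 against 38.1 CPM, and *Fat2*, an atypical cadherin, at 60.2 against 10.5 CPM. The log2 ratio of *Nrxn3* was 2.06 and stayed past 2-fold in 18 of 19 alternatives, but its lowest value was 0.064. *Qrfpr*, a G protein-coupled peptide receptor, was at 38.4 against 3.70 CPM.

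Among the 10 genes furthest below the other epithelial cells, 6 were not globins. All 6 were more abundant in the comparison cells with at least 2 *Shh* UMIs, which the rule left out of the members. *Slc40a1*, the iron exporter ferroportin, was at 3.63 CPM in members against 42.1 CPM, with a log2 ratio of -1.93 (-2.17 to -1.61). In the comparison group it was at 99.0 CPM in the 371 cells with at least 2 *Shh* UMIs and at 11.7 CPM in the 1144 cells with fewer. *Fgf9*, an FGF ligand of dental epithelium, was at 3.63 against 40.0 CPM (94.2 and 11.1 CPM in the same 371 and 1144 cells). *Igfbpl1*, an IGF-binding-like protein, was at 37.6 against 163 CPM (340 and 68.7 CPM). *Frem1*, an extracellular matrix protein, was at 12.9 against 53.1 CPM, *Vwde* at 58.6 against 173 CPM, and *Spry2*, a feedback inhibitor of FGF signalling, at 16.6 against 59.5 CPM. Against only the cells with at most 1 *Shh* UMI, 18 genes were at least 2-fold lower and 105 higher.

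The other 4 of the 10 lowest genes were the globins *Hbb-bt*, *Hba-a1*, *Hba-a2* and *Hbb-bs*, which are made by red cells. *Hbb-bs* was at 1032 CPM in members and 3153 CPM in the others. Only 2 members and 25 other cells had over 1% globin UMIs, and 1 member gave 66.6% of the members' *Hbb-bs* UMIs. Without the clusters led by collagen and globin genes, the log2 ratio of *Hbb-bs* was 1.87 in place of -1.60, so no direction is given for the globins.

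*Krt15*-only members gave 1278352 of the 2476074 UMIs of all members and so weighed most in the choice of these genes, and the counts by kind of member are description. Of the 127 genes, 118 were also at least 2-fold above the other epithelial cells in *Krt15*-only members taken alone (2.87% of 8980 genes ranked were), 30 in *Meis2*-only members alone (0.929% of 8828), and 22 in both. All 127 were above 0 in *Krt15*-only members, with a median log2 ratio of 1.44, and 110 in *Meis2*-only members, with a median of 0.64. Of the 31 lower genes, 27 were past 2-fold in *Krt15*-only members alone (1.53% of genes ranked were) and 8 in *Meis2*-only members alone (0.306%). *Slc12a2* was at 1184 CPM in *Krt15*-only members, 1105 CPM in cells with both genes and 198 CPM in *Meis2*-only members, the last below the 210 CPM of the other epithelial cells. *Maf* was at 766, 1008 and 321 CPM in the same order.

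**Figure D3:**
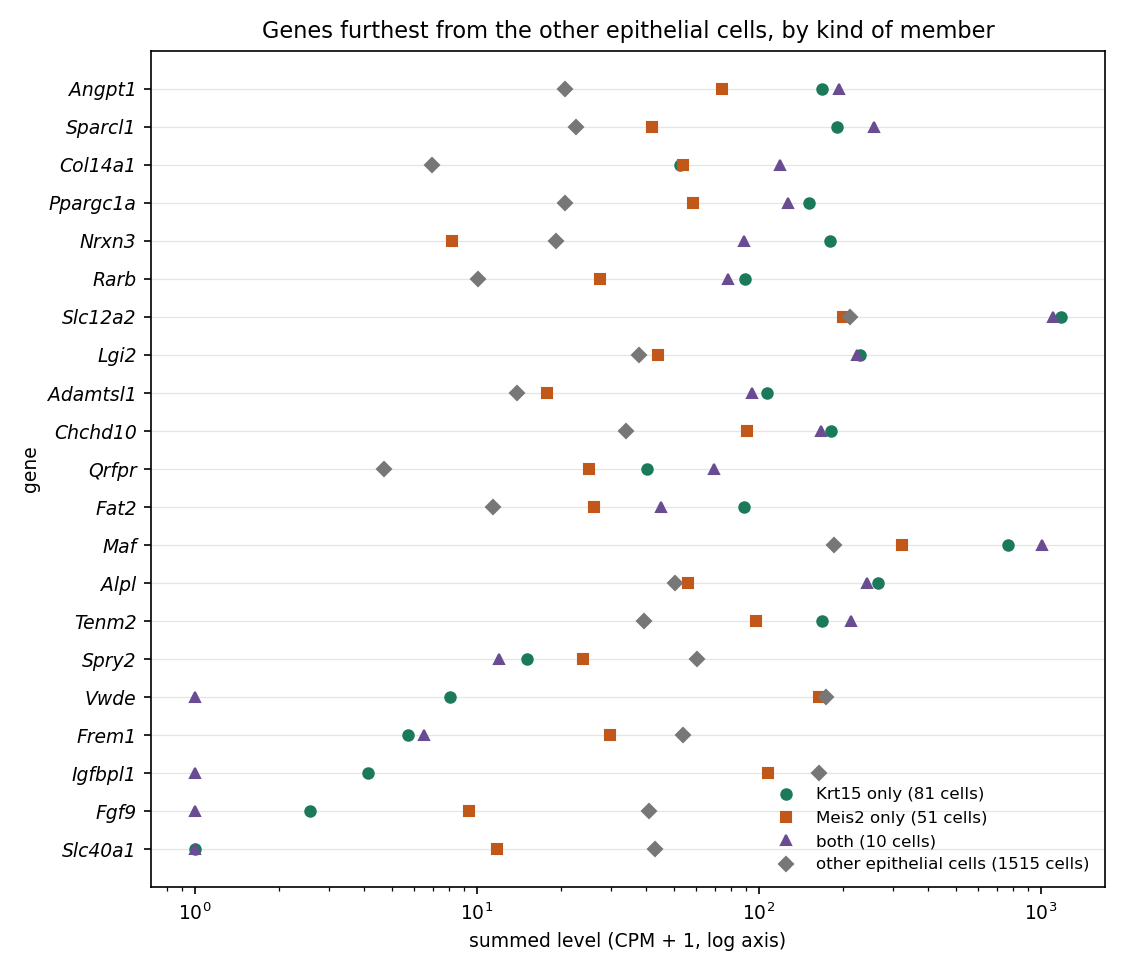
Summed level of the genes with the 15 largest and, without the 4 globins, the 10 smallest ratios of members over other epithelial cells, in *Krt15*-only members, *Meis2*-only members, cells with both genes and other epithelial cells (horizontal axis CPM + 1, logarithmic). *Slc12a2* was at 1184 CPM in *Krt15*-only members and 198 CPM in *Meis2*-only members, and *Vwde* at 7.04 and 163 CPM.

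*Krt15*-only and *Meis2*-only members were then compared directly, over 5629 genes ranked in them. At least 2-fold higher in *Krt15*-only members were 138 genes (2.45%), and at least 2-fold lower 114 genes (2.03%), with a median ratio of 0.00. The depth was small, 1278352 UMIs in the 81 cells and 833804 UMIs in the 51 cells. The 5 highest genes were *Nrxn3*, *Ntrk2*, *Zbtb20*, *Sox2* and *Spink5*.

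*Nrxn3* was at 178 CPM in *Krt15*-only members and 7.20 CPM in *Meis2*-only members, a log2 ratio of 3.45. *Ntrk2*, the receptor of the neurotrophin BDNF, was at 272 against 26.4 CPM. The transcription factor *Zbtb20* was at 291 against 37.2 CPM, but 1 cell gave 38.2% of its UMIs in *Krt15*-only members, and without that cell the level was 190 CPM. *Krt15*-only members had 651 CPM of *Zbtb20* in cluster 4, beside 439 CPM in the other cells of that cluster, and 130 CPM in cluster 3. *Spink5*, a serine protease inhibitor of skin, was at 58.7 against 1.20 CPM. Its 75 UMIs in *Krt15*-only members came from 14 cells, and without the cell that gave 21 of them the level was 44.5 CPM. Of the 75 UMIs, 73 were in cluster 3, and the *Krt15*-only members of cluster 4 were at 2.38 CPM.

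*Sox2* (ENSMUSG00000074637, chromosome 3, 34650405 to 34652461, plus strand) was detected in 10 of 81 *Krt15*-only members, in 4 of 10 cells with both genes and in 0 of 51 *Meis2*-only members, which allows a share of up to 5.88% of cells with a UMI and sets no limit on cells that express the gene. Its level was 52.4 CPM (40.6 to 66.6) in *Krt15*-only members, at least 14.6-fold higher than in *Meis2*-only members, whose limit was 3.60 CPM (3 counts over the group). The cell with most *Sox2* gave 25 of the 67 UMIs, and without it the level was 34.7 CPM, at least 9.64-fold above that limit of *Meis2*-only members. Both folds rest on counted levels and do not include the counting error of *Krt15*-only members. Of the 67 *Sox2* UMIs, 64 came from 7 of the 20 *Krt15*-only members in cluster 4. The 49 in cluster 3 were at 4.05 CPM, so the folds do not describe most cells of this kind. In cluster 4, *Sox2* was also detected in 75 of the 184 other epithelial cells, at 69.3 CPM. Its 20 *Krt15*-only members were at 153 CPM, or 111 CPM without the highest cell. High levels of *Sox2* were therefore not particular to members. The 10 cells with both genes had 16.49 CPM (6.05 to 35.9) at E16.5, an interval that holds the 34.7 CPM of *Krt15*-only members without their highest cell. At E14.5 the levels were 135 CPM (106 to 169) in the 55 cells with both genes, 54.3 CPM (39.0 to 73.7) in 85 *Meis2*-only cells and 28.3 CPM (7.72 to 72.5) in 29 *Krt15*-only cells, the last based on 4 UMIs and overlapping the interval of the *Meis2*-only cells. *Sox2* was detected in 21.2% of the *Meis2*-only cells at E14.5 and in none of the 51 at E16.5. In the other epithelial cells it was detected in 18.6% at E14.5 and 7.26% at E16.5, so detection was also lower outside the members.

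Other genes were higher in *Meis2*-only members. *Stmn2*, a regulator of microtubules, was at 164 CPM in *Meis2*-only members and 3.13 CPM in *Krt15*-only members (log2 ratio of *Krt15*-only over *Meis2*-only -3.73), and *Tubb3*, a beta tubulin, at 144 against 11.7 CPM. *Vwde* was at 163 against 7.04 CPM, *Igfbpl1* at 107 against 3.13 CPM, and the transcription factor *Klf4* at 195 against 16.4 CPM. The other cells of cluster 2 had 253 CPM of *Stmn2*, 162 CPM of *Tubb3*, 443 CPM of *Igfbpl1* and 191 CPM of *Klf4*. High levels of these genes were therefore not particular to members. *Ambn*, which encodes the enamel matrix protein ameloblastin, had 34 UMIs in 9 *Meis2*-only members (40.8 CPM) and 0 UMIs in *Krt15*-only members, at least 17.4-fold, or 11.8-fold without the 1 cell that gave 12 of the UMIs, but it had too few UMIs to be ranked. It was also among the leading genes of cluster 2, which held 19 *Meis2*-only members and 1 *Krt15*-only member, so these folds do not make it particular to members. *Odam*, another gene of ameloblasts, was at 75.6 against 22.7 CPM, but 69.8% of its UMIs in *Meis2*-only members came from 1 cell, and without that cell the level was 24.5 CPM.

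The levels of some genes differed between clusters within a kind of member. The 49 *Krt15*-only members of cluster 3 had 277 CPM of *Angpt1*, 1155 CPM of *Maf* and 4.05 CPM of *Sox2*, and the 20 of cluster 4 had 7.15 CPM of *Angpt1*, 231 CPM of *Maf* and 153 CPM of *Sox2*. Those genes are among the genes that lead clusters 3 and 4, so the contrast was built in. *Slc12a2* and *Nrxn3*, which are not among the 10 leading genes of either cluster, were high in both, at 1001 and 1752 CPM for *Slc12a2* and at 174 and 226 CPM for *Nrxn3* in clusters 3 and 4. In cluster 4, *Nrxn3* was detected in 7 of 20 cells and 1 cell gave 45 of its 95 UMIs, and without that cell the level was 142 CPM. The 13 *Meis2*-only members of cluster 3 had 221 CPM of *Angpt1* and 1112 CPM of *Maf*, but 9.39 CPM of *Nrxn3*. The 19 in cluster 2 had 4.0 CPM of *Angpt1*, 24.0 CPM of *Maf* and 356 CPM of *Vwde*, beside 465 CPM of *Vwde* in the other cells of that cluster.

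Members were also set beside the other cells of their own cluster. The 127 genes were chosen as higher in these same members, so a shift above all genes was largely built in, and the counts are description. The share of all genes past 2-fold within a cluster was not counted. Only the median over all genes stands beside each count. In cluster 4, members had a median depth of 8056 UMIs and the others 8088 UMIs, and 70 of the 127 genes were at least 2-fold higher in members within the cluster, with a median log2 ratio of 1.06 against 0.08 over all genes. *Slc12a2* was at 1752 CPM in the *Krt15*-only members of cluster 4 and 290 CPM in its other cells, and *Nrxn3* at 226 and 31.7 CPM, or 142 CPM in members without the 1 cell. In cluster 3, where members were deeper (medians 7287 and 4273 UMIs), 21 of the 127 were at least 2-fold higher and 126 were above 0. Their median was 0.59 against 0.03 over all genes. There *Slc12a2* was at 1001 CPM in the *Krt15*-only members, 582 CPM in the *Meis2*-only members and 767 CPM in the other cells, and *Nrxn3* at 174 CPM in *Krt15*-only members and 64.6 CPM in the other cells. The other cells of cluster 3 also had 948 CPM of *Maf*, 137 CPM of *Angpt1* and 239 CPM of *Alpl*, so high levels of these genes were not particular to members. In cluster 1, with 14 *Meis2*-only members among 23, members were also deeper (medians 12972 and 10245.5 UMIs). There 31 of the 127 were at least 2-fold higher and 104 above 0, with a median of 0.51 against 0.06 over all genes. In cluster 2, with 19 *Meis2*-only members among 20, the medians were 9287 and 6036.5 UMIs. Of the 127, 9 were at least 2-fold higher there and 61 above 0, with a median of -0.03 against 0.02 over all genes.

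Gene lists of tooth biology were summed in the same groups. The ratio of summed CPM and the median over the genes of a list can differ, since an abundant gene dominates the sum, and the median over all genes ranked was 0.09. The lists were described by counts and levels only. Their counts stand beside the shares over all genes ranked, 1.37% at least 2-fold higher and 0.335% lower in members, 2.87% and 1.53% in *Krt15*-only members alone, and 0.929% and 0.306% in *Meis2*-only members alone.

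Among transcription factors of dental epithelium, 1 of 11 ranked genes was at least 2-fold higher and 2 lower, with a median ratio of 0.12. *Irx1*, a homeobox factor, was at 49.3 CPM in members against 18.4 CPM. *Sp6*, a zinc finger factor required for ameloblasts, was at 49.3 against 111 CPM, and *Lef1*, which mediates Wnt signals, at 12.1 against 40.5 CPM. Of the TALE, Nr2f and Tfap2 factors, 0 of 8 ranked were past 2-fold, and their summed ratio of 0.33 was -0.10 in cells thinned to 2000 UMIs. *Meis1*, the close relative of *Meis2*, was at 54.9 against 23.3 CPM. *Meis1* did not follow *Meis2*, as it was at 79.0 CPM in *Krt15*-only and 11.99 CPM in *Meis2*-only members. It was among the leading genes of cluster 4, which held 20 *Krt15*-only and 2 *Meis2*-only members. Whether the difference followed the clusters was not tested.

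Stem cell and niche genes taken from the study's text summed to 780 CPM in members and 371 CPM in the others, a log2 ratio of 1.05 (0.98 to 1.12). That sum was carried by *Wnt4*, a Wnt ligand (344 against 192 CPM), and *Notch2*, a Notch receptor (280 against 78.4 CPM, log2 ratio 1.71, chromosome 3, 98013527 to 98150361), the only 1 of the 5 ranked past 2-fold. The paper ties *Wnt4* and *Notch2* to a suprabasal or stellate reticulum compartment at E14.5, so the sum is no measure of stem cell genes alone. *Sox2* was at 29.5 against 12.7 CPM (0.80, 0.52 to 1.08), but 1 cell gave 34.2% of its UMIs in members, which were at 19.9 CPM without that cell. *Lgr5*, a receptor found on many epithelial stem cells, was at 4.04 against 0.627 CPM (0.40), *Bmi1*, a Polycomb protein, at 23.8 against 22.1 CPM (0.08), *Sfrp5*, a secreted Wnt inhibitor, at 24.2 against 15.4 CPM (0.43) and *Prdm6* at 8.48 against 8.03 CPM (0.04), all short of 2-fold. The list was put together for this description from genes that the study names, with earlier results of these data known, so it is no independent evidence of a direction.

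Signalling lists differed by pathway. In the hedgehog list, *Ptch1*, the receptor of Shh and a target of the pathway, was at 451 CPM in members against 187 CPM (1.22, 1.13 to 1.32), the only 1 of 8 ranked past 2-fold, *Gli1*, another target, was at 48.9 against 33.9 CPM (0.42, 0.18 to 0.66) and *Gli3*, a transcription factor of the pathway, at 92.1 against 50 CPM. The summed ratio was 0.94 and the median 0.37. Members thus had more *Ptch1* RNA than the other epithelial cells while the rule limited their own *Shh*. In the Wnt list, *Sostdc1*, a secreted inhibitor of BMP and Wnt signals, dominated with 1605 against 624 CPM (1.35, 1.30 to 1.40), and the ligand *Wnt7b* was at 22.2 against 5.96 CPM. *Lef1*, already given, was lower, and *Axin2*, a target of the canonical pathway, was at 6.87 against 14.49 CPM (-0.54). The summed Wnt ratio of 1.005 therefore stood beside a median of 0.21, with 2 of 10 ranked genes at least 2-fold higher and 1 lower.

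In the FGF list, 3 of 10 ranked genes were at least 2-fold lower (0.335% over all genes) and 1 higher (1.37%), with a median of -0.26 and a summed ratio of 0.11, which was -0.077 as a mean over cells and -0.18 without cycling cells (those with at least 5 of 10 cell cycle genes). *Fgf9*, *Spry2* and *Etv4*, the last a transcription factor induced by FGF (10.5 against 36.5 CPM), were the lower ones. *Spred1*, an inhibitor of Ras signalling, was at 210 against 56.8 CPM (1.72, 1.57 to 1.86). The receptors *Fgfr1* and *Fgfr2* were at 194 against 207 CPM and at 119 against 82.8 CPM. In the BMP list, the antagonist *Fst* was at 151 against 47.0 CPM (1.495) and *Id4*, a helix-loop-helix inhibitor, at 216 against 94.9 CPM, 2 of 10 ranked, while the abundant *Id3* was at 639 against 914 CPM and the summed ratio was -0.20 (-0.25 to -0.16), or 0.10 with members chosen by *Meis2* alone, beside a median of 0.08. In the Notch list, with a summed ratio of 0.70, *Notch2* was the only 1 of 7 ranked past 2-fold, and *Hes1*, a Notch target, was at 197 against 168 CPM. In the IGF list, summed at 2259 against 1349 CPM, *Igfbp3*, an IGF-binding protein, was at 164 against 43.9 CPM (1.70) and *Igfbp5* at 1226 against 633 CPM (0.94), and *Igfbpl1* was the lower one of 8 ranked.

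Genes of hemidesmosome and basement membrane had a summed ratio above 0 that was short of 2-fold. Of 12 ranked, 3 were at least 2-fold higher and 0 lower, beside 1.37% higher over all genes, with a median ratio of 0.47 and a summed ratio of 0.67 (0.61 to 0.72). *Dst*, which links keratins to hemidesmosomes, was at 421 against 193 CPM, and the laminin chain *Lama3* at 29.5 against 7.59 CPM. Taken alone, 4 of 12 were at least 2-fold higher in *Krt15*-only members (2.87% over all genes) and 2 of 12 in *Meis2*-only members (0.929%), the latter *Dst* and *Col17a1*, a collagen of hemidesmosomes. The summed level was 1288 CPM in *Krt15*-only and 1314 CPM in *Meis2*-only members, a log2 ratio of -0.03 (-0.14 to 0.08). Among junction genes, *Cdh1*, or E-cadherin, was at 112 against 49.4 CPM, the only 1 of 10 ranked past 2-fold. Thinned to 2000 UMIs, *Lama3* was at a log2 ratio of -0.27, so its direction did not hold at that depth.

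Of 10 cell cycle genes, 0 were at least 2-fold lower in members (0.335% over all genes). In *Krt15*-only members taken alone 5 were (1.53% over all genes), namely *Birc5*, *Ccnb1*, *Ccnb2*, *Ube2c* and *Pclaf*, and in *Meis2*-only members 0 (0.306%). They summed to 1598 CPM in members and 2561 CPM in the others, a log2 ratio of -0.68 (-0.72 to -0.63) with a median of -0.67, and the summed ratio was -0.93 in *Krt15*-only and -0.19 in *Meis2*-only members. The level was 1342 CPM in *Krt15*-only and 2237 CPM in *Meis2*-only members. *Mki67*, a gene of proliferating cells, was at 198 CPM in *Krt15*-only members, 219 CPM in *Meis2*-only members and 287 CPM in the comparison group.

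Actomyosin genes, the contractile machinery at the centre of the study, summed to 7195 CPM in members and 7043 CPM in the others, a log2 ratio of 0.03 (0.01 to 0.05) whose sign changed under several alternatives, and 0 of 14 ranked were past 2-fold. This near balance hid a difference between the kinds of member, 5896 CPM in *Krt15*-only and 8790 CPM in *Meis2*-only members (-0.58, -0.62 to -0.53). *Actb*, a cytoplasmic actin, was at 2330 and 3693 CPM in them and at 3224 CPM in the comparison group.

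Differentiation lists differed in direction. Enamel knot genes summed to 139 against 221 CPM (-0.64) and were at 77.4 CPM in *Krt15*-only and 236 CPM in *Meis2*-only members. Against only the other cells with at most 1 *Shh* UMI, the summed ratio was 0.11, so its direction depended on the cells with *Shh*. Ameloblast genes summed to 58.6 against 29.4 CPM with 0 of 7 ranked, a summed ratio of 0.80 that was -1.03 without cycling cells, and were at 24.3 CPM in *Krt15*-only and 120 CPM in *Meis2*-only members. Without the cell with most of these UMIs in each, the levels were 12.02 and 72.3 CPM. Simple and periderm keratins summed to 40.0 against 75.8 CPM, with *Krt18* at 19.8 against 56.7 CPM. Squamous differentiation genes, at 300.1 against 249 CPM, had 0 of 5 ranked past 2-fold. Immediate early and stress genes, at 1773 against 1415 CPM, had 1 of 12 past 2-fold, *Atf3*, a stress-induced factor at 95.3 against 36.0 CPM, and 1 cell gave 39.8% of its UMIs in members, which were at 58.2 CPM without it.

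**Figure D4:**
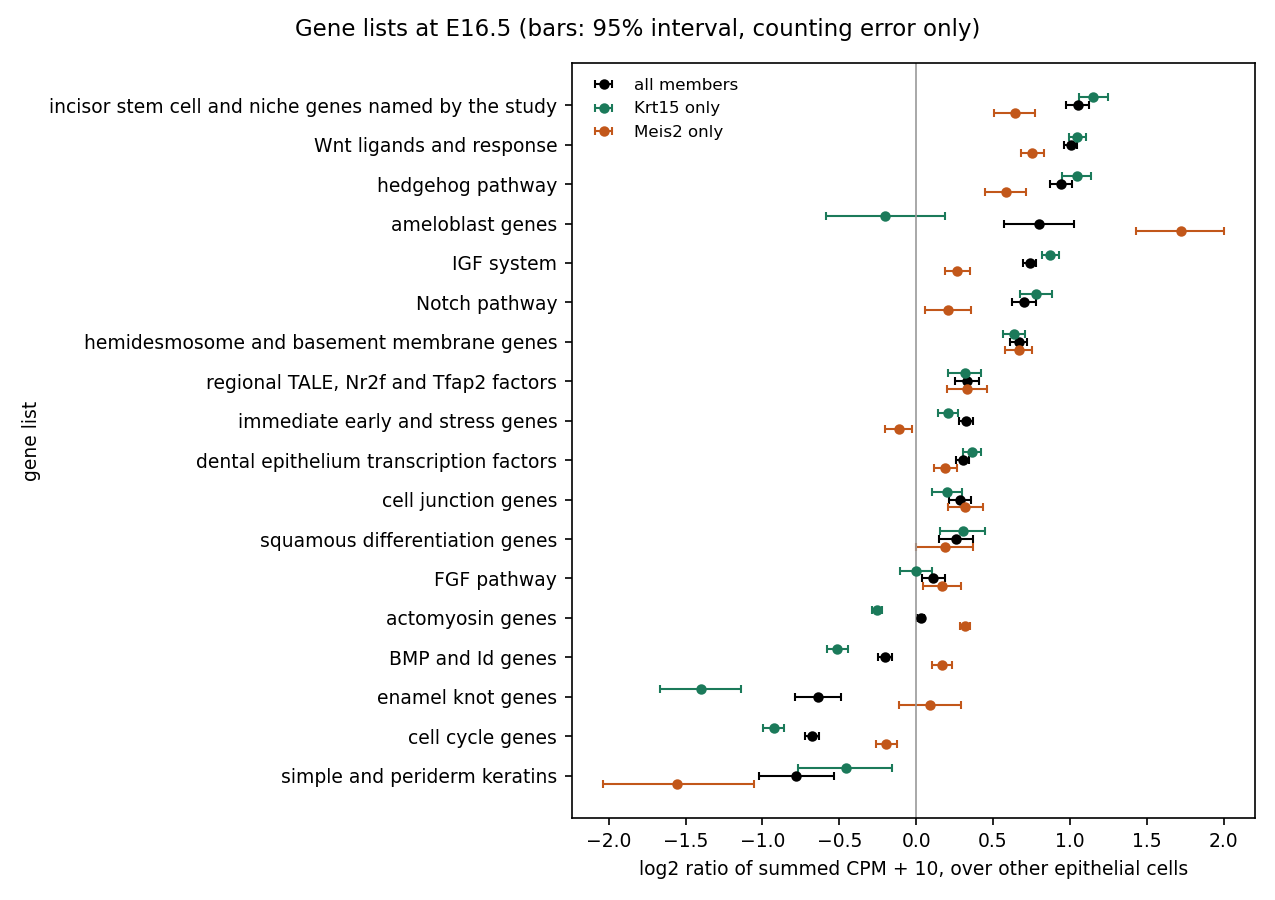
Log2 ratio of the summed CPM + 10 of 18 gene lists over the other epithelial cells at E16.5 (horizontal axis), for all members, *Krt15*-only members and *Meis2*-only members, with exact 95% intervals that cover counting error only. Hemidesmosome and basement membrane genes were at 0.67 in all members and in *Meis2*-only members, while cell cycle genes were at -0.68 in all members.

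Markers of other cell types were measured beside these lists. Immune markers summed to 0.404 CPM in members, with 6 of 7 at 0, muscle markers to 0.404 CPM, with 5 of 6 at 0, and endothelial markers to 12.5 against 32.1 CPM, with 3 of 6 at 0. Glial and neural crest markers summed to 29.5 against 18.4 CPM (a log2 ratio of 0.47, and of -0.68 in thinned cells), led by *Erbb3*, and melanocyte markers to 10.9 against 7.40 CPM. Mesenchyme markers summed to 340 CPM in members and 342 CPM in the others. Their most abundant gene, *Col1a2*, was at 188 against 70.9 CPM (1.29), the only 1 of 4 ranked past 2-fold, whereas *Col1a1* was at 14.9 against 37.9 CPM. Of the osteoblast markers, 76.7 against 28.0 CPM, *Runx2*, which dental epithelium also expresses, gave 55.3 against 13.9 CPM, and its ratio was -0.76 when cells were thinned to 2000 UMIs. The part of cells of other types in the results was not tested.

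The same rule applied to E14.5, a sample that did not choose the E16.5 members, gave 169 members of 852 epithelial cells, 19.8% (17.2 to 22.7). At E11.5 only 6 cells passed the epithelial gate, and all 6 met the rule by *Meis2*, which was also detected in 3980 of the 6567 cells outside the gate at that stage. Of 6891 genes ranked at E14.5, 45 (0.653%) were at least 2-fold higher in members and 65 (0.943%) lower.

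For the 6837 genes ranked at both stages, 90 were at least 2-fold higher in members at E16.5 and 42 at E14.5, and 11 of them at both, 12.2% and 26.2% of these lists. They were *Adamtsl1*, *Amot*, *Angpt1*, *Dapl1*, *Gpc3*, *Lgi2*, *Notch2*, *Npnt*, *Nrxn3*, *Ppargc1a* and *Sorbs2*. *Angpt1* was at 45.6 against 9.74 CPM at E14.5 (1.495), *Notch2* at 78.1 against 33.6 CPM (1.02) and *Gpc3*, a glypican, at 231 against 83.1 CPM (1.37). *Maf* was another case, with a log2 ratio of 1.76 at E16.5 and -0.44 at E14.5. Of the 90 genes, 64 were above 0 at E14.5, beside 44.1% of all genes.

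Of 24 genes at least 2-fold lower at E16.5 and 54 at E14.5, 11 were lower at both, 45.8% and 20.4% of these lists, counting the globin *Hbb-bt*, for which no direction is given. They included *Etv1* and *Etv4*, ETS factors of FGF signalling, *Lef1*, *Sp6*, *Ccnd1*, or cyclin D1, *Cyp26a1*, which degrades retinoic acid, and *Frem1*. *Etv1* was at 33.5 against 80.3 CPM at E16.5 and at 11.8 against 92.8 CPM at E14.5, and *Ccnd1* at 77.1 against 174 CPM and at 47.7 against 152 CPM. Across the 6837 genes, which are not independent replicates, Pearson's r between the ratios of the stages was 0.36.

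**Figure D5:**
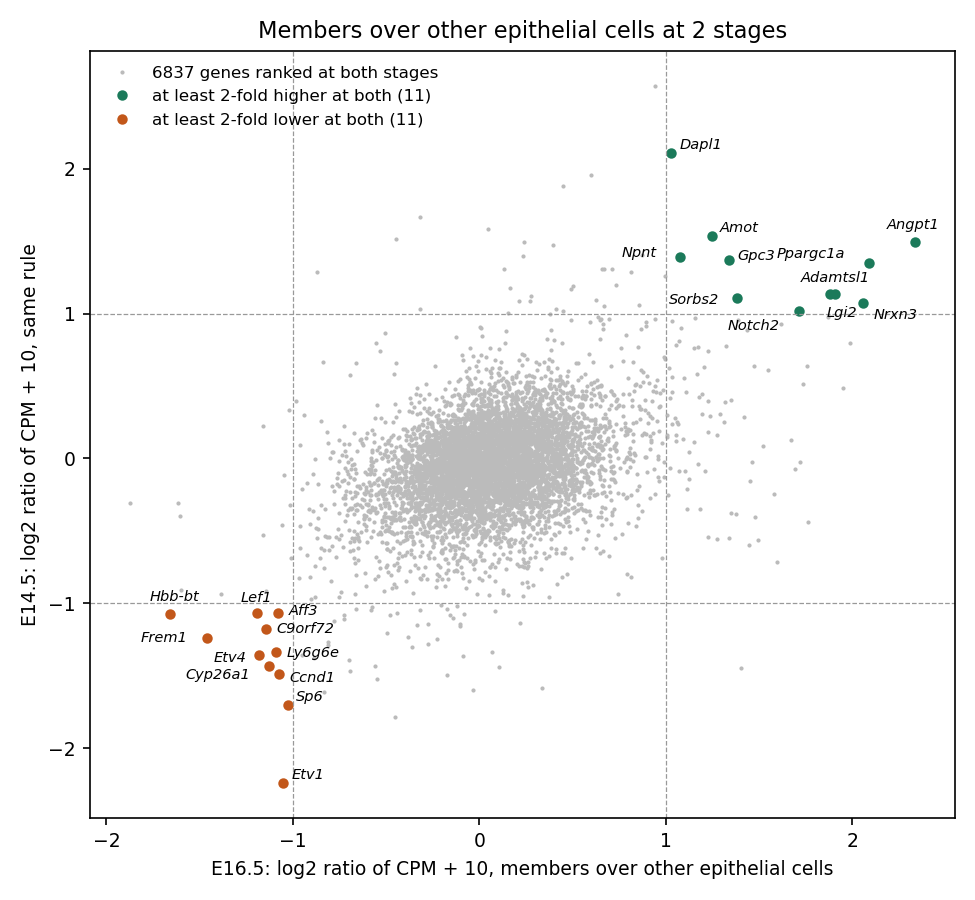
Log2 ratio of members over other epithelial cells at E16.5 (horizontal) and E14.5 (vertical) for 6837 genes ranked at both stages, each point 1 gene, with the 11 genes at least 2-fold higher and the 11 at least 2-fold lower at both stages named and dashed lines at 2-fold. The direction of *Hbb-bt*, a globin among the lower genes, changed under alternatives. *Angpt1* was at 2.34 and 1.495, and *Etv1* at -1.05 and -2.24.

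Some lists did not behave alike at the stages. Hedgehog genes were at a summed ratio of 0.94 in members at E16.5 and -0.39 (-0.55 to -0.24) at E14.5, and Wnt genes at 1.005 and -0.25. Stem cell and niche genes were at 1.05 and 0.996 (0.85 to 1.14), and cell cycle genes at -0.68 and -0.28. These differences between stages were not tested.

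Between the members of the stages, 327 of 7410 genes ranked (4.41%) were at least 2-fold higher at E16.5 and 30 (0.405%) lower. Members were shallower at E14.5, with a median of 5402 UMIs against 9271.5 UMIs at E16.5. With all cells thinned to the same number of UMIs, fewer genes were ranked and most of the excess of higher genes was gone. The counts also changed with the CPM added, as given in the last section. The median shift was 0.20 in log2 over all genes. The highest were *Satb1*, a chromatin organizer (250 against 19.4 CPM), *Matn4*, a matrilin (80.8 against 2.07 CPM), *Dlx5* (155 against 12.4 CPM), *Sparcl1* (149 against 12.4 CPM) and *Msx2* (177 against 16.6 CPM), with log2 ratios of 2.82 to 3.14 beside that shift. *Dlx5* and *Msx2*, homeobox factors of tooth and jaw, had 115 and 166 CPM in the comparison group of E16.5. The lowest were *Hbb-y*, an embryonic globin (1.62 against 837 CPM), the imprinted genes *Grb10* (6.06 against 81.6 CPM) and *H19* (139 against 668 CPM), *Ifitm1* (20.6 against 163 CPM) and *Atf3* (95.3 against 369 CPM). Only 4 of the 169 members at E14.5 had over 1% globin UMIs. Globins made up 4.63% of the UMIs of *Krt15*-only members at that stage and 0.045% of those of *Meis2*-only members. How far a few cells carried the *Hbb-y* value was not tested. Members at E14.5 carried more of the 2 genes of the rule, 386 CPM of *Meis2* against 35.9 CPM at E16.5 and 233 CPM of *Krt15* against 85.2 CPM, which is description because the genes chose the cells. Stage and sample cannot be told apart in any of these values.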

How the data were processed

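Single-cell libraries were processed by the authors with Cell Ranger 4.0.0 against the mm10 reference of 10x Genomics, and 1 matrix of UMI counts per stage was deposited, not normalized, with 5719 barcodes at E16.5 and 8192 at E14.5. The stages shared 13 to 17 barcodes pairwise. The study's filter on cells (minimum 700 genes, maximum 20% mitochondrial UMIs) left 4511 cells at E16.5 (1034 to 123785 UMIs per cell, median 6260). UMI counts were added up per group of cells and scaled to CPM. Intervals were exact Poisson, binomial or Clopper-Pearson at 95%. Clustering used scanpy 1.11.5 (2000 variable genes, 20 components, Leiden resolution 0.4). Scrublet's own threshold called 2 of 4511 cells, so doublets were kept and, as an alternative, the 5% highest scores were left out. Named genes were the 15 largest and 10 smallest ratios of members over other cells, the 5 largest and smallest of the other contrasts, list genes past 2-fold, and genes named by the study. Genes given for level or position beside these (such as *Meis1*, *Odam* and *Etv1*) come from the lists or from the genes shared by stages and were chosen after their values were seen. Some genes that entered the counts and list sums are not reported here. The members, gene lists and comparisons were chosen with earlier results of these data known. The code was tested on simulated data. Gene positions come from GENCODE vM21, another release than the authors' annotation.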

Additional observations from a re-analysis of the deposited data

Results flagged for a closer look

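*Mindy4*, a deubiquitinase gene, moved in opposite directions at the stages. It was at 67.8 CPM in members and 19.4 CPM in the other epithelial cells at E16.5, a log2 ratio of 1.41 (1.18 to 1.62), and at 11.8 against 49.3 CPM at E14.5, a log2 ratio of -1.45 (-1.84 to -1.01). It was the only 1 of 6837 genes ranked at both stages that was at least 2-fold apart in opposite directions, and the difference was not tested. *Mindy4* was also among the 10 leading genes of cluster 3 at E16.5.

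At E11.5, which entered no comparison, 9 *Krt15* UMIs were counted in 7 of 6573 cells, over the 3 counts taken as the floor. That was 0.106% of the cells (median 5664 UMIs) and 0.189 CPM, beside 0.272% of E16.5 mesenchymal cells (median 6541 UMIs). Of the 9 UMIs, 2 were in 2 of the 6 cells that passed the epithelial gate and 7 in 5 of the 6567 others. Free RNA and expression in these cells cannot be told apart from so few UMIs.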

How the results depend on the processing

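No paired analysis was possible because the barcodes of a stage could not be assigned to samples, and leaving out each replicate was not run for the same reason. The share of members and the counts of genes held within 1.5-fold, or within the interval of the share, under 2 other filters on cells, 2 other gates, removal of the highest doublet scores and removal of cells over 1% globin. The share was 3.75% after thinning to 2000 UMIs, 3.08% with at least 2 UMIs of either gene, 5.49% for *Krt15* alone and 3.68% for *Meis2* alone. In these settings the counts of genes higher and lower in members were 191 and 153, 194 and 66, 240 and 126, and 75 and 22, in place of 127 and 31. With 1 CPM added they were 393 and 99, and with 50 CPM 29 and 6. The lower genes numbered 18 against cells with at most 1 *Shh* UMI, 18 for genes in 25% of cells and 80 without cells with at least 5 cell cycle genes, an alternative chosen after seeing the data, as were both others of this kind (other Leiden resolutions, clusters left out). For *Krt15*-only over *Meis2*-only members, in place of 138 and 114, the counts were 236 and 170 with 1 CPM, 30 and 44 with 50 CPM, and 17 and 3 thinned. Between stages, in place of 327 and 30, they were 735 and 62 with 1 CPM, 65 and 8 with 50 CPM, and 40 and 30 thinned. Fewer UMIs left fewer genes ranked in the thinned fits. Shares of members in their main cluster stayed within their intervals at resolutions 0.2 and 0.8.

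Of 44 named genes over 19 alternatives, 38 never changed sign, nor did any of the 10 genes named in each of the other contrasts. Size held less well, as 309 of the 836 values, and 26 and 25 of 30 in the other contrasts, lay outside the counting interval of the reported ratio. Of the 44 genes, 7 stayed past 2-fold in all 19 alternatives and the others in at least 12 (*Wnt7b* and *Sp6* in 12, *Cdh1*, *Dst* and *Id4* in 13), and of the 10 genes, 9 in each of the other contrasts did in all 3. Thinned, *Lama3* was at -0.27 and *Runx2* at -0.76. *Hbb-bt* was at 0.060 without cells over 1% globin, and without the collagen and globin clusters *Hbb-bt*, *Hba-a1*, *Hba-a2* and *Hbb-bs* were at 2.52, 2.31, 2.06 and 1.87 and all erythroid markers at 2.14. Of 26 lists, 17 were not counted as changing sign, but a change was counted only where the main interval excluded 0. The 17 include mesenchyme, melanocyte and muscle markers, whose main intervals held 0. Mesenchyme markers ranged from -0.60 to 0.24 and melanocyte markers from -0.085 to 0.68. Actomyosin genes changed sign, at -0.19 (thinned), -0.012 (2 UMIs), -0.16 (*Krt15* alone), -0.00853 (rule and values from separate UMIs), -0.031 (few *Shh* UMIs), -0.017 (mean over cells) and -0.23 (without cycling cells). Thinned, the TALE, Nr2f and Tfap2 factors were at -0.10, glial markers at -0.68 and osteoblast markers at -0.37. Ameloblast genes were at -0.23 for *Krt15* alone and -1.03 without cycling cells, BMP and Id genes at 0.10 for *Meis2* alone, enamel knot genes at 0.11 against cells with few *Shh* UMIs, and FGF genes at -0.077 as a mean over cells and -0.18 without cycling cells. The cause was not tested. Depth limits the contrast of *Krt15*-only and *Meis2*-only members, which held 1278352 and 833804 UMIs.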
